A study of Homo sapiens with 4 samples.

Results

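The BCL2 family decides whether the mitochondrial route to cell death opens. In this series, 10 of its genes were examined for open chromatin in LNCaP cells and in enzalutamide-resistant LNCaP cells. They were the anti-apoptotic genes BCL2, BCL2L1, BCL2L2 and MCL1, the effectors BAX and BAK1, and the BH3-only genes BCL2L11, BBC3, PMAIP1 and BID. These are 10 of 20033 protein-coding genes of the RefSeq table for GRCh38.p14. Every accessible region in the gene body or within 10 kb of it was taken, which gave 74 of the 150917 regions found in the series.

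LNCaP is a cell line from an androgen-sensitive prostate cancer, and enzalutamide is an antiandrogen drug. The study compared 2 libraries labelled LNCaP with 2 libraries labelled LNCaP-resistance, which the labels describe as treated with enzalutamide. The question was how open chromatin differs once the cells tolerate the drug. LNCaP carries the genotype label WT and no treatment label, the labels give the same medium with serum for both, and each came as a repeat 1 and a repeat 2. The labels give neither a drug dose nor a subline, and the study's methods describe more than 1 resistant subline, raised by stepwise exposure after LNCaP cells had been adapted to charcoal-stripped serum, so the resistant cells cannot be assigned to one of them from the labels.

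ATAC-seq marks open chromatin through a transposase that cuts accessible DNA and leaves adapters there. Each deposited list gives the summit of every peak with a score on a −log10 scale of p or q. The lists held 117245 and 107344 summits in LNCaP replicates 1 and 2, and 70866 and 45618 in resistant replicates 1 and 2. Without read counts in the lists, depth is unknown. Scores of libraries with different depth cannot be set side by side, and each summit is therefore given by its percentile, the percent of summits in its own list that score no higher. Windows reaching 250 bp to each side of a summit were joined where they overlapped in any of the libraries, and each joined stretch is a region. A region was called shared with a summit in all 4 libraries, LNCaP-only with one in both LNCaP libraries and in neither resistant library, resistant-only for the opposite, and mixed otherwise. Among regions or gene starts, "higher" and "lower" mean that both resistant libraries lay above, or below, both LNCaP libraries. With 2 libraries against 2 an exact two-sided permutation test cannot give a p below 0.333, so no difference given here can pass a conventional threshold. Nothing in the labels says that the replicates came from separate cultures, and their spread may be technical.

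The luminal prostate genes HOXB13 and FOXA1 had a summit within 1 kb of their starts in all 4 libraries. KRT18 had one in 3 libraries, KRT8 only in LNCaP replicate 2, and KLK3, which encodes prostate-specific antigen, in none. Of 4 genes of other lineages, the leukocyte gene PTPRC and the liver gene ALB had none, the T cell gene CD3E had one in replicate 1 of each cell type, and the muscle gene MYOD1 had one in all 4. Either gene end counted for HOXB13, KRT18, CD3E and MYOD1.

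In the mitochondrial route, BAX and BAK1 form pores in the outer mitochondrial membrane and let cytochrome c reach the cytosol, where it starts the caspase cascade. BCL2, BCL-XL (the main product of BCL2L1), BCL-W (from BCL2L2) and MCL1 hold the effectors and their activators in check. The BH3-only proteins BIM (from BCL2L11), PUMA (from BBC3), NOXA (from PMAIP1) and BID sense stress and tip the balance toward death. Prostate cancer cells rely on several of the anti-apoptotic members for survival, and BCL2 is well known from tumours that have lost androgen dependence.

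The sequence under the start summits is shown for BAX, BCL2L11 and PMAIP1, 3 members in which both resistant libraries lay above both LNCaP libraries at the start and at least 3 libraries had their summit in the 250 bases upstream. Each is the RefSeq sequence of GRCh38.p14 for the 250 bases upstream of the annotated start, 5′ to 3′. Capitals mark 11 bases centred on each library's summit, and neighbouring stretches run together.
BAX, plus strand, chr19:48954625-48954874: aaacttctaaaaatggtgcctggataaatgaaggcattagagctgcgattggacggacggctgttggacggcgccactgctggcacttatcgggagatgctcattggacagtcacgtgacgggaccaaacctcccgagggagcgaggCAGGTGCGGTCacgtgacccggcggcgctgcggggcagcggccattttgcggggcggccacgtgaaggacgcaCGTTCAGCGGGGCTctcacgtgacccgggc
BCL2L11, plus strand, chr2:111120664-111120913: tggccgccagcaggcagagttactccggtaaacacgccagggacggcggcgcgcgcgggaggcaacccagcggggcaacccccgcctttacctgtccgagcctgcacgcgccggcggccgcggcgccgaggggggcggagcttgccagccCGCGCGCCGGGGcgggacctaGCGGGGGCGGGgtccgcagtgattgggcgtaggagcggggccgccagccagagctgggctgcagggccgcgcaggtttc
PMAIP1, plus strand, chr18:59899746-59899995: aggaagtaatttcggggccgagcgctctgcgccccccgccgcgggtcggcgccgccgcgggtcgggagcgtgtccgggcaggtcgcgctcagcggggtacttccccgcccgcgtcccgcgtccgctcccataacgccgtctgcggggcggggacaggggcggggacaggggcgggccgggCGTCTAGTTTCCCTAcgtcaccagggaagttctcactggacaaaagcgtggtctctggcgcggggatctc
In BAX, the summits of LNCaP replicate 1 and both resistant libraries made the stretch near the start, between 22 and 25 bp upstream of it, and the summit of LNCaP replicate 2 lay 98 bp upstream. In BCL2L11, LNCaP replicate 1 and resistant replicate 1 peaked 95 and 94 bp upstream and resistant replicate 2 peaked 74 bp upstream, while the summit of LNCaP replicate 2 lay 389 bp upstream, outside the sequence shown. For PMAIP1, 3 libraries peaked between 61 and 65 bp upstream, and LNCaP replicate 2 peaked 95 bp downstream of the start.

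The results of 4 letter patterns are given, searched on both strands of the 300 bases from 250 upstream to 50 downstream of the start, in the 8 members found in the promoter table. The GC box GGGCGG was present in 4 of the 8 (BAX, BAK1, BCL2L11 and PMAIP1), against 44.5% of 27305 promoters, with 3 matches in BCL2L11 and 4 in PMAIP1. CCAAT was also present in 4 (BAX, BAK1, BCL2L11 and BBC3), against 35.7% of promoters. TATAAA occurred in 1 (BCL2L1, with 2 matches), against 12.0%. TGACGTCA, the cyclic AMP response element, occurred in none of these windows, against 1.97% of all promoters. GC content was 74.7% in BCL2L11, 71.3% in PMAIP1, 70.7% in BCL2 and 67.3% in BAX, and between 48.0% and 58.7% in BBC3, BID, BCL2L1 and BAK1, with a median of 58.3% over all promoters. These windows need not hold the accessible site. From the 5′-most annotated start, the BCL2L1 summits lay 283 to 307 bp and the BID summits 760 to 831 bp downstream. The only BCL2 start summit lay 396 bp upstream, and BBC3 had none within 1 kb.

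At the gene starts, 4 of the 10 members lay higher in resistant cells (BCL2L1, BAX, BCL2L11 and PMAIP1) and 1 lay lower (BID). The start percentile was taken from the strongest summit within 1 kb of any annotated start, or 0 without one. For BCL2L2, MCL1 and other genes outside the table of starts, which held 15842 of the 20033 genes, either end of the gene counted. Over all protein-coding genes, 21% of starts lay higher and 16.2% lower. Of the members, 8 had a start summit in every library, and the 4 higher and 1 lower members were all among these. Of the 12004 protein-coding genes with a summit in all 4 libraries, 27.1% lay higher and 21.6% lower. The median difference between resistant and LNCaP means over the 10 members was 5.95 percentile points, against 0 over all protein-coding genes. It was 12.1 without LNCaP replicate 1 and 1.61 without LNCaP replicate 2. With a library left out, a call of higher or lower is easier to meet. On that looser rule 2 members lay lower without LNCaP replicate 1, LNCaP replicate 2 or resistant replicate 1, and 6 lay higher without LNCaP replicate 1.

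**Figure D1:**
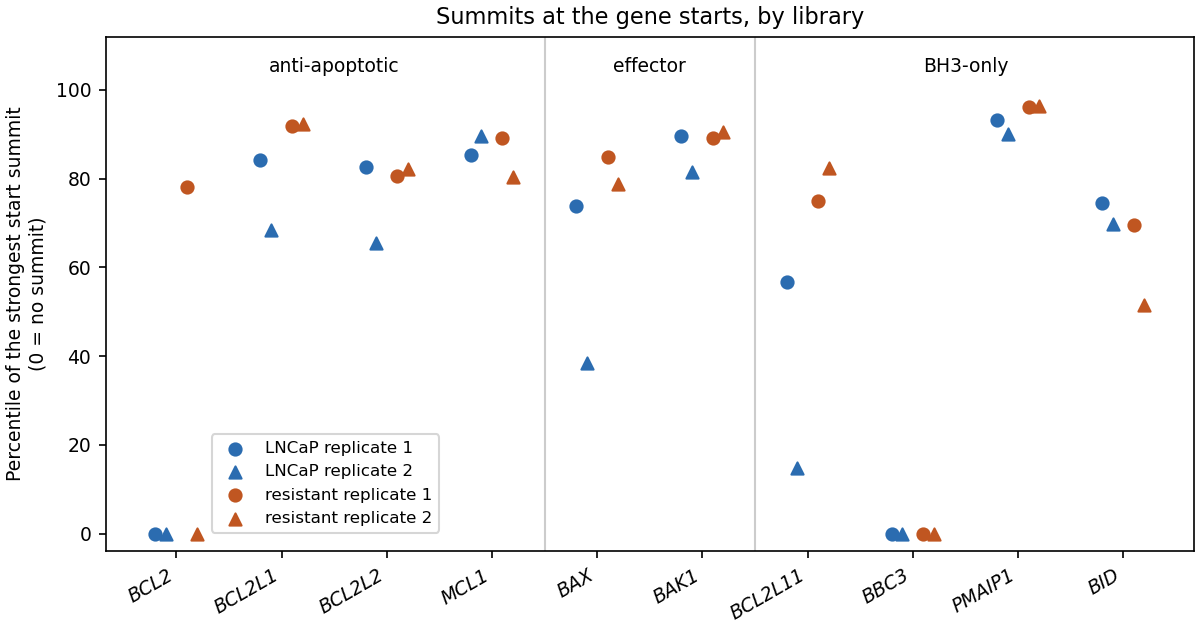
Percentile of the strongest summit at the start of each of the 10 members (vertical axis, 0 to 100, with 0 for no summit), with 1 point per library; circles are replicate 1, triangles replicate 2, blue LNCaP and orange resistant. Orange points lie above both blue points for BCL2L1, BAX, BCL2L11 and PMAIP1 and below them for BID, while BBC3 is at 0 throughout.

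A summit's percentile depends on how many weaker summits its own list holds, and the lists of the LNCaP libraries are longer. Taking the 45618 strongest summits of each library, 8 members lay higher and 0 lower, against 45.8% and 4.28% of all protein-coding starts. The median difference was then 27.5 points over the members and 4.79 over all genes. Among the regions shared by all 4 libraries only, a scale added after the data had been seen, 6 of the 8 members with a start there lay higher and 0 lower, against 54.1% and 9.16% of 11561 starts, with medians of 19.8 and 8.64. On each of these scales a larger share of all starts lay higher as well, so the members have to be read against that shift.

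BCL2L1 encodes BCL-XL and had a strong start in all 4 libraries. Its region at chr20:31722647-31723930 peaked between 283 and 307 bp downstream of the start and reached percentiles of 84.3 and 68.4 in LNCaP and 92.0 and 92.4 in resistant cells. Both resistant values lay above both LNCaP values, with means of 76.3 ± 11.3 and 92.2 ± 0.302 (SD, n = 2) and a difference of 15.9 against a pooled SD of 7.96. The difference was 7.93 without LNCaP replicate 2, 23.9 without LNCaP replicate 1 and 47.4 with equal numbers of summits.

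Several strong regions along the rest of BCL2L1 ranked the other way. A region at chr20:31719267-31719779, about 4434 bp inside the gene, reached 96.2 and 98.0 in LNCaP and had no summit in either resistant library. It was the strongest LNCaP-only region of the 10 genes, and it stayed LNCaP-only with equal numbers of summits. Just beyond the 3′ end, a region at chr20:31664058-31664591 reached 98.7 and 99.7 in LNCaP, near the top of both lists, against 34.4 in resistant replicate 1 and no summit in replicate 2. Another 2 regions inside the gene that all libraries shared lay lower in resistant cells, and both also lie in the antisense gene BCL2L1-AS1. The one at chr20:31679800-31680361 had 96.4 and 91.9 in LNCaP and 66.5 and 33.6 in resistant cells. The difference was -44.1 with a pooled SD of 16.6. The other, at chr20:31711946-31713062, had 77.0 and 84.6 against 71.3 and 31.9 and overlapped with equal numbers of summits (-8.67). The resistant replicates lay far apart in both, by more than the LNCaP replicates. Conversely, a region at chr20:31661501-31662009, beyond the 3′ end, reached 67.2 and 64.5 in resistant cells against 34.6 in LNCaP replicate 1 and no summit in replicate 2.

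BCL2, the founding anti-apoptotic gene, had no summit within 1 kb of its annotated start in either LNCaP library. Resistant replicate 1 had one 396 bp upstream of the start at percentile 78.2, and resistant replicate 2 had none, so the cell types overlapped, and only without resistant replicate 2 did resistant cells lie higher, by 78.2. A region 1230 to 1253 bp upstream, at chr18:63320749-63321272, was found instead in LNCaP replicates 1 and 2 and resistant replicate 2, at 67.5, 59.5 and 62.0. Within 3 kb of the start, summits were thus present in every library. The RefSeq gene body reaches to 63320090, upstream of the annotated start at 63319769. Summits of all 4 libraries lay within 1 kb of that gene end, so the LNCaP values of 0 depend on the start used.

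The body of BCL2 is long, and it held fewer summits in the resistant lists, which are shorter. The window of 216745 bp held 13 and 12 summits in LNCaP and 3 and 4 in resistant cells. Of its 17 regions, 5 were LNCaP-only and none was resistant-only, against 27.5% and 3.84% of all regions in the series. The LNCaP-only regions were weak to middling, the strongest being at chr18:63249823-63250376 with 53.6 and 55.3 and at chr18:63199380-63200289 with 65.2 and 43.4. None of the 5 stayed LNCaP-only with equal numbers of summits, since the weaker LNCaP summits then drop from the lists. One region, at chr18:63154580-63155882 deep in the gene, was shared and lay higher in resistant cells, at 92.5 and 87.9 against 67.0 and 83.3. The resistant summits there lay 164412 and 164407 bp from the start and the LNCaP summits 164137 and 164146 bp, so the summits of the cell types did not coincide. Another, at chr18:63132761-63133276, had 89.0 and 87.6 in LNCaP against 30.3 in resistant replicate 2 and no summit in replicate 1.

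MCL1, a short-lived protein that many tumour cells need, had a strong start region in all 4 libraries, with a small difference between the cell types. The region at chr1:150579551-150580054 had 85.2 and 89.7 in LNCaP and 89.2 and 80.4 in resistant cells, a difference of -2.65 with a pooled SD of 4.88. The cell types overlapped, and MCL1 lay lower without LNCaP replicate 1 (-4.85) or resistant replicate 1 (-7.01) but higher with equal numbers of summits (12.9). The 4 summits lay within 3 bp of each other, from 150579801 to 150579804. Inside the gene there were 3 LNCaP-only regions, and the strongest, at chr1:150575814-150576320 with 63.9 and 63.0, stayed LNCaP-only with equal numbers of summits. A shared region at chr1:150567616-150568555, in the antisense gene ADAMTSL4-AS1, lay lower in resistant cells, with 82.4 and 88.8 against 66.0 and 64.8. The difference was -20.2 with a pooled SD of 3.26, but with equal numbers of summits the cell types overlapped (-8.33).

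BCL2L2 encodes BCL-W and shares its start with the read-through gene BCL2L2-PABPN1. The region there, at chr14:23306510-23307140, had 82.7 and 65.4 in LNCaP and 80.6 and 82.1 in resistant cells, which overlap. It lay higher without LNCaP replicate 1 (a difference of 15.9), with equal numbers of summits (38.9) and among shared regions (22.5), and lower without LNCaP replicate 2 (-1.37). The strongest region in its window belongs to the start of PABPN1, at chr14:23320902-23321427, with 99.6 and 98.8 against 98.9 and 99.7. A resistant-only region at chr14:23302641-23303144, at the start of PPP1R3E, reached 18.1 and 37.0. These values rank it among the weak summits of both lists.

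**Figure D2:**
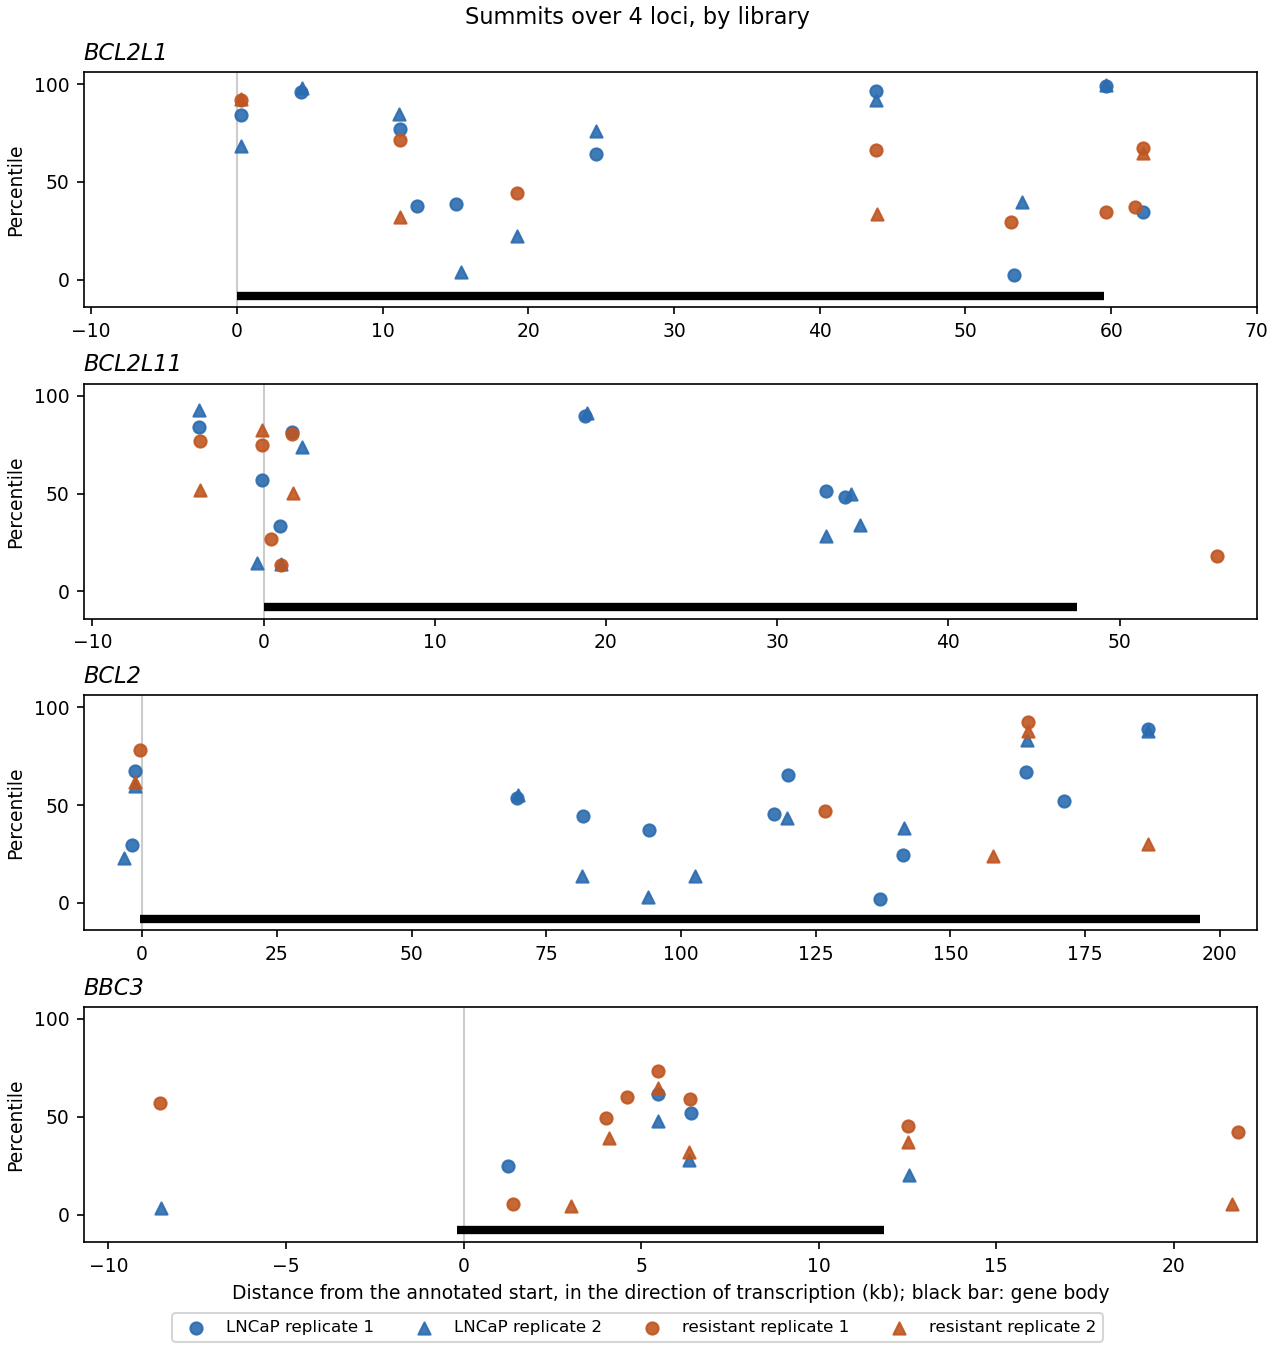
Percentile of the strongest summit of each library in each region (vertical axis, 0 to 100) against its distance from the annotated start in the direction of transcription (kb). The panels show BCL2L1, BCL2L11, BCL2 and BBC3, with 1 symbol per region and library and a black bar for the gene body. In BCL2L1 and BCL2L11 the resistant points (orange) lie above the LNCaP points (blue) at the start, with LNCaP summits without an orange partner further inside, at 4434 bp and 18805 bp.

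BAX, an effector that BH3-only proteins switch on, lay higher at its start in resistant cells. The region at chr19:48954527-48955103 had 73.9 and 38.5 in LNCaP and 84.9 and 78.7 in resistant cells. Means were 56.2 ± 25.1 and 81.8 ± 4.39 (SD, n = 2), a difference of 25.6 against a pooled SD of 18.0. The difference was 7.90 without LNCaP replicate 2 and 43.3 without LNCaP replicate 1. A shared region at chr19:48964964-48965943, at the start of FTL, the ferritin light chain gene next to BAX, also lay higher, with 80.4 and 86.8 against 71.2 and 73.7. Apart from these, the window held 1 weak summit, in resistant replicate 1.

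BAK1, the other effector, had a strong start whose values overlapped. The region at chr6:33579993-33580514 had 89.5 and 81.5 in LNCaP and 89.2 and 90.4 in resistant cells, and it lay higher without LNCaP replicate 1 (8.33) or resistant replicate 1 (4.92), with equal numbers of summits (22.0), with a minimum score of 10 (10.4) and among shared regions (17.0). Its summits lay between 12 and 33 bp downstream of the start in all libraries. A shared region beyond the 3′ end, at chr6:33570690-33571625, lay slightly lower in resistant cells, with 85.7 and 89.4 against 90.9 and 93.3, and overlapped with equal numbers of summits. Neither effector had an LNCaP-only or resistant-only region.

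BCL2L11 encodes BIM and showed the largest difference among the starts with a summit in all 4 libraries. Its start region at chr2:111120275-111121090 had 56.6 and 14.7 in LNCaP and 75.0 and 82.4 in resistant cells. Means were 35.7 ± 29.7 and 78.7 ± 5.23 (SD, n = 2), a difference of 43.0 against a pooled SD of 21.3. The LNCaP replicates lay far apart, and the difference was 22.1 without LNCaP replicate 2 and 64.0 without LNCaP replicate 1. The value of 14.7 belongs to a summit 389 bp upstream of the start, while the other libraries peaked 74 to 95 bp upstream. Part of the difference thus sets different positions side by side. With equal numbers of summits the start was found only in the resistant libraries. Counting summits up to 3 kb from the start, however, the cell types overlapped and the difference was 3.66, because LNCaP has summits at 81.5 and 74.0 about 1652 and 2248 bp inside the gene.

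Away from its start, BCL2L11 held 3 LNCaP-only regions. The strongest, at chr2:111139469-111140084, lay 18805 bp inside the gene and reached 89.5 and 91.2, the highest of any LNCaP-only region after that in BCL2L1, and it stayed LNCaP-only with equal numbers of summits. Upstream of the gene, a shared region at chr2:111116895-111117451, inside ACOXL, lay lower in resistant cells, with 83.9 and 92.5 against 76.9 and 52.0, although the cell types overlapped with equal numbers of summits (-12.4).

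PMAIP1 encodes NOXA and had the highest start percentile of the 10 genes in every library. The region at chr18:59899681-59900341 had 93.3 and 90.0 in LNCaP and 96.1 and 96.5 in resistant cells. Means were 91.7 ± 2.35 and 96.3 ± 0.246 (SD, n = 2), a difference of 4.62 against a pooled SD of 1.67, or 2.95 without LNCaP replicate 2. A region beyond the 3′ end, at chr18:59908737-59909246, had 65.0 and 69.3 in LNCaP, 21.4 in resistant replicate 1 and no summit in replicate 2.

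BBC3 encodes PUMA, a main target of p53, and no library had a summit within 1 kb of its start. The nearest lay 1250 and 1403 bp inside the gene, in LNCaP replicate 1 and resistant replicate 1, at 24.9 and 5.28. Yet BBC3 held more summits in the resistant lists, although these are shorter. Its window held 3 and 4 summits in LNCaP against 8 and 6 in resistant cells. A resistant-only region at chr19:47228329-47228895, 4022 bp inside the gene, had 49.2 and 39.2 and was the strongest resistant-only region of the 10 genes. A shared region next to it, at chr19:47226933-47227453, lay higher in resistant cells, with 73.3 and 64.7 against 61.8 and 47.9. The region at chr19:47226024-47226579 had 59.2 and 31.9 against 51.9 and 28.0, which overlap. A further resistant-only region, at chr19:47210623-47211280 near the start of SAE1, had 41.9 and 5.50. Both resistant-only regions stayed so with equal numbers of summits. That setting leaves the list of resistant replicate 2 whole and can only take LNCaP summits away. Only a loss of the summit of resistant replicate 1 could have changed the class.

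BID links death receptors to mitochondria and was the only member to lie lower at its start. The region at chr22:17773584-17774155 had 74.6 and 69.8 in LNCaP and 69.6 and 51.6 in resistant cells, a difference of -11.6 against a pooled SD of 9.29. The upper resistant value lay just under the lower LNCaP value, and the difference was -2.60 without resistant replicate 2 and -20.6 without resistant replicate 1. This direction depended on the scale, since with equal numbers of summits BID lay higher in resistant cells, by 20.4, among the shared regions the difference was -0.0408, and with a minimum score of 10 the cell types overlapped (-15.9). Near its 3′ end, a shared region at chr22:17742335-17742866 also lay lower, with 58.7 and 24.2 against 69.6 and 67.2, and it too lay higher with equal numbers of summits (7.74). One LNCaP-only region, with 37.3 and 51.7, lay inside the gene.

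Ordered by mean start percentile in LNCaP, the members ran PMAIP1 (91.7), MCL1 (87.5), BAK1 (85.5), BCL2L1 (76.3), BCL2L2 (74.1), BID (72.2), BAX (56.2) and BCL2L11 (35.7), with BCL2 and BBC3 at 0. Apart from PMAIP1 and MCL1, neighbours with a summit overlapped in their replicates. In resistant cells the order was PMAIP1 (96.3), BCL2L1 (92.2), BAK1 (89.8), MCL1 (84.8), BAX (81.8), BCL2L2 (81.3), BCL2L11 (78.7), BID (60.6) and BCL2 (39.1, from 78.2 and 0), with BBC3 at 0. There, the replicates of PMAIP1, BCL2L1 and BAK1 did not overlap with one another, and those of BCL2L11 and BID did not either. BAK1 and MCL1 were separated by under 1 point, while neighbours among MCL1, BAX, BCL2L2 and BCL2L11 overlapped. BCL2L1 moved from the fourth place to the second.

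Position along the gene separated the shared regions of the 10 genes. Of 21 shared regions, 7 lay higher in resistant cells, 7 lower and 7 overlapped, while over all 31833 shared regions 17.7% lay higher and 41.8% lower. The 8 regions at the members' own starts held 4 of the higher and 1 of the lower regions, with a median difference of 5.95. At all gene starts, 26.5% of 11910 shared regions lay higher and 23.5% lower, with a median of 0.155. Of the 10 regions away from any gene start, 2 lay higher and 6 lower, with a median of -15.7. Away from gene starts in the whole series 12.4% lay higher and 52.7% lower, with a median of -13.2. The members' shared regions thus divided by position much as shared regions in general did. With percentiles among the shared regions, 10 of the 21 lay higher and 5 lower, and over the whole series 11230 lay higher and 9545 lower. Of the 7 regions that lay lower among all summits, that at chr20:31679800-31680361 in BCL2L1 was the 1 that stayed lower with equal numbers of summits. Among all summits, 12 shared regions lay higher without LNCaP replicate 1, when only 1 LNCaP library had to be exceeded.

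**Figure D3:**
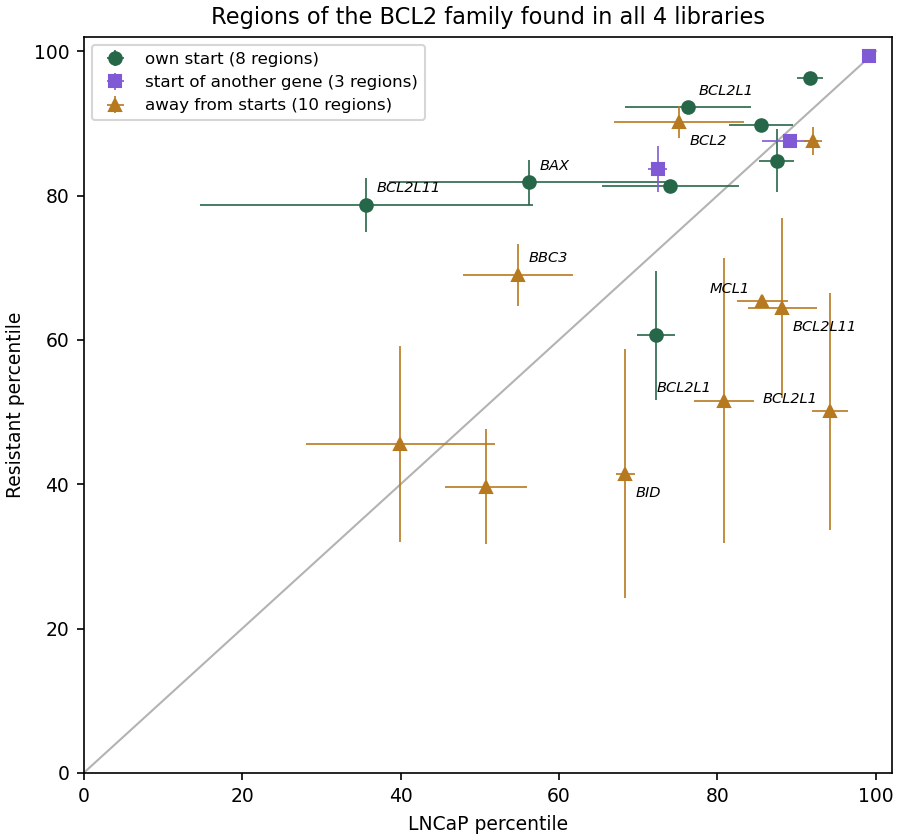
Mean percentile in LNCaP (horizontal axis) against mean percentile in resistant cells (vertical axis) for the 21 regions of the 10 genes that all libraries shared, with bars from the lower to the higher replicate and a line of equal values; gene names mark regions that differ by over 14 points. The circles for own starts lie on or above the line except for BID and MCL1, while 6 of the 10 triangles for regions away from starts lie below it with replicates that do not overlap.

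Presence followed the same positions. Of the 74 regions, 21 were shared, 15 were LNCaP-only, 3 were resistant-only and 35 were mixed. Without resistant replicate 2, when a summit in the 1 remaining resistant library sufficed, 13 were resistant-only. Over all regions 21.1% were shared, 27.5% LNCaP-only and 3.84% resistant-only. Of the 55 regions away from any gene start, 14 were LNCaP-only, against 30.8% in the series, and of the 19 at a gene start 1 was, against 8.11%. With equal numbers of summits, 6 of the members' regions were LNCaP-only and 7 resistant-only, against 17.1% and 14.9% of 77034 regions in the series. Of the original 15 LNCaP-only regions, 4 stayed so, 1 became mixed and 10 no longer held a summit. The 4 that stayed were those in BCL2L1 (at 4434 bp, and at chr20:31699073-31699578 with 64.1 and 76.2), BCL2L11 (at 18805 bp) and MCL1. By role, the anti-apoptotic genes held 11 LNCaP-only and 1 resistant-only regions of 40, the effectors 0 and 0 of 7, and the BH3-only genes 4 and 2 of 27.

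Of the 74 regions, 6 were at the 90th percentile or above in both LNCaP libraries, and 1 of them, inside BCL2L1, was absent from both resistant libraries. Of 8591 such regions in the series, 13.9% were absent. The 5 others were the BCL2L1 regions beyond the 3′ end and at chr20:31679800-31680361, the PABPN1 start, the BAK1 region beyond the 3′ end and the PMAIP1 start. All 3 regions of the 10 genes at the 90th percentile or above in both resistant libraries were shared, as were 4077 of 4160 such regions in the series.

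Counted as a share of each list, summits in the windows of the 10 genes made up 0.0469% and 0.0550% of the LNCaP lists (55 and 59 summits) and 0.0649% and 0.0680% of the resistant lists (46 and 31 summits). Means were 0.0509% ± 0.00569 and 0.0664% ± 0.00215 (SD, n = 2), and the exact two-sided permutation p was 0.333, the smallest possible here. The share of summits in the windows of all protein-coding genes was also larger in the resistant lists, at 69.9% and 73.3% against 67.5% and 68.2%.

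Other genes of the death machinery were followed at their starts in 3 lists. Among 13 further BCL2 family genes, 3 lay higher and 2 lower in resistant cells, with a median difference of 1.48. As given for the members, 21% of all protein-coding starts lay higher and 16.2% lower, and the counts in all 3 lists are to be read against these shares. Either end of the gene counted for BCL2L10 and BNIP3L here, and for TNFRSF10A in a later list. BCL2L10, an anti-apoptotic relative, had no start summit in LNCaP and 55.7 and 60.3 in resistant cells. BNIP3L, which marks mitochondria for removal, had 92.1 and 92.4 against 96.7 and 98.3. BCL2L14 and BCL2L13 lay lower. BCL2L14 had 79.1 and 82.4 in LNCaP against 72.3 and 70.2, and BCL2L13 had 97.0 and 96.6 against 92.2 and 94.7. For BCL2L13, the summit of LNCaP replicate 1 lay near another annotated start, 68151 bp from the 5′-most one. The other libraries peaked 108 to 143 bp from the 5′-most start, so the values belong to different sites. Both genes overlapped with equal numbers of summits and among shared regions.

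Downstream of the mitochondria, 3 of 12 genes for caspases, the apoptosome and their inhibitors lay higher and 3 lower, with a median of -0.973. The executioner caspase gene CASP6 lay higher, with 74.2 and 75.9 in LNCaP against 92.2 and 92.5 in resistant cells. BIRC2 and BIRC3, which encode the inhibitors cIAP1 and cIAP2, lay lower. BIRC2 had 93.9 and 94.8 against 90.5 and 75.3, and BIRC3 had 93.9 and 98.2 against 91.5 and 87.9. Of 6 death receptor genes, 1 lay higher and 1 lower, with a median of -2.69. The adaptor gene FADD had no start summit in LNCaP and 67.9 and 46.5 in resistant cells, and the TRAIL receptor gene TNFRSF10A had 89.2 and 92.2 against 84.5 and 70.3. With equal numbers of summits 8 of 13, 8 of 12 and 2 of 6 genes lay higher and 0 lower in each list, which again goes with the general shift of that scale.

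**Figure D4:**
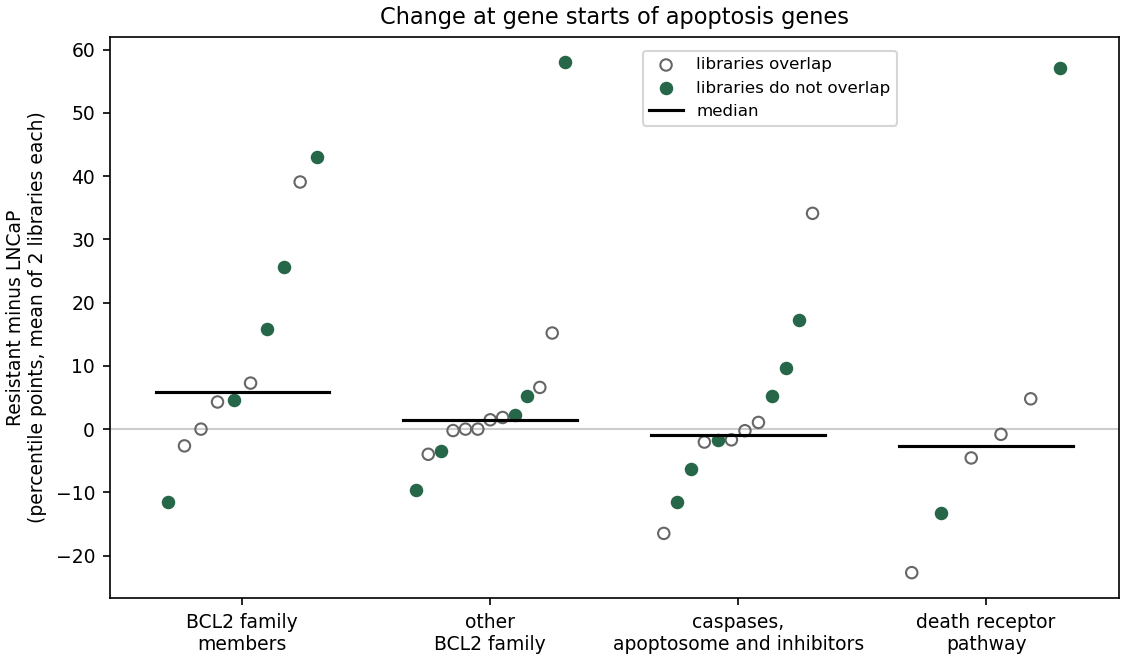
Difference between the resistant and LNCaP mean start percentiles (vertical axis, percentile points) for the 10 members and for 3 lists of apoptosis genes, with 1 circle per gene, filled where the replicates of the cell types do not overlap, and a black line at the median. The medians are 5.95, 1.48, -0.973 and -2.69 from left to right, and each list holds filled circles on both sides of 0.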

How the data were processed

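ATAC-seq libraries of LNCaP and enzalutamide-resistant LNCaP cells, 2 of each, were compared. The authors called peaks in each library and deposited their summits, with a score that is −log10 of a p-value or of a q-value. Which of these it is, is not given in the sources used here. Scores started just above 1.30, the value of 0.05. The submitters' processing notes name hg38, Bowtie2 2.2.5, SAMtools 1.6 and MACS2 2.2.6, without options. The lists hold no counts, so depth and the precision it gives are unknown.

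Genes came from the RefSeq tables of GRCh38.p14, in which all 10 members were found, and starts and promoters from a table that held 8 of them (not BCL2L2 and MCL1). No genome or exon annotation was used here. Windows, region classes, percentiles and calls were computed as described with the results, with Python 3.11.15, numpy 2.4.6, pandas 2.3.3 and scipy 1.17.1, and the computation was tested on simulated lists. Members and lists were chosen with earlier results of these data known. The genes and regions named were all members with their start regions, the 2 highest regions of each presence class, the 2 largest differences in each direction of each list among genes whose replicates did not overlap, and genes starting within 1 kb of a named region. Other regions were chosen after their values were seen. Some named items that this rule and the marker and motif searches cover are not reported here.

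The labels give the same batch tag, repeat 1 or repeat 2, to 1 library of each cell type, which pairs them. Over 31833 shared regions the deviations of same-numbered libraries from their means correlated at -0.0121. Alternatives were other windows and flanks, a minimum score of 10, lists cut to equal length, each library left out, comparison within the same number and, added after the data had been seen, percentiles among shared regions.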

Additional observations from a re-analysis of the deposited data

How the results depend on the processing

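With equal numbers of summits there were 6 LNCaP-only and 7 resistant-only regions of the 10 genes and 1 shared region lay lower, while 8 starts lay higher and 0 lower, with a median of 27.5; BID turned from lower to higher, at 20.4. The difference in share of summits was then 0.0110 percentage points, against 0.0155. In the 3 apoptosis lists 8, 8 and 2 starts lay higher and 0 lower. With a minimum score of 10 there were 8 LNCaP-only, 1 resistant-only and 13 shared regions, of which 3 lay lower, 0 starts lay lower, the median start difference was 14.2 and the difference in share was 0.0207. Among shared regions 0 starts lay lower, with a median of 19.8. By construction, the first of these settings removes mostly LNCaP summits. The second cut into every list, since summits scoring near 10 lay at percentiles of 44.6 and 49.7 in LNCaP replicates 1 and 2. In resistant replicates 1 and 2 such summits lay at 34.4 and 46.5.

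A window of 100 bp gave 4 higher shared regions and one of 500 bp gave 1 resistant-only region. A flank of 3 kb gave 1 resistant-only region and a difference in share of 0.00563. In gene bodies alone there were 1 resistant-only and 11 shared regions, 4 of them higher and 4 lower. The cause of these changes was not tested beyond the smaller windows searched.

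With 1 library left out, there were 17 to 22 LNCaP-only, 4 to 13 resistant-only and 22 to 25 shared regions, of which 8 to 12 lay higher and 9 to 10 lower. From 4 to 6 starts lay higher and 1 to 2 lower, the median start difference ran from 1.61 to 12.1, and the difference in share from 0.0115 to 0.0195. The lone library left in a cell type was taken to stand for it. Calls are then easier to meet, so the counts of regions and starts could hardly fall below those with all libraries. These counts therefore do not measure how stable the calls are.

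Compared within the same number (the replicate block), there were 15 LNCaP-only and 3 resistant-only regions. Of the shared regions 8 lay higher and 7 lower, and of the starts 4 lay higher and 1 lower. The presence classes are the same by definition in this comparison, and a call of higher or lower can only be kept or added. The 1 added higher region was the only change, and these counts cannot show whether the pairing matters.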
